A study of Mus musculus with 6 samples.

Results

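The Bcl2 family sets the threshold at which a cell releases cytochrome c from its mitochondria and dies by apoptosis. Antiapoptotic members such as Bcl2, Bcl-xL (the product of Bcl2l1) and Mcl1 hold the effectors Bak and Bok in check, and BH3-only members such as Bim (Bcl2l11), Bmf, Puma (Bbc3), Bid and Bad bind and block the antiapoptotic members or activate the effectors directly. In mice, loss of Bim together with Bcl2 rescues the cystic kidneys that loss of Bcl2 alone causes, so the balance between these proteins is known to matter in the developing kidney. The transcripts of all 10 genes were measured in kidneys whose stroma lacked Dicer. Members were taken by the gene symbol that the array platform gives to each probe, which found 28 probes for the 10 genes among 34881 probes with 1 gene symbol (19057 genes). Pro- and antiapoptotic members were kept apart.

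The samples were whole mouse kidneys at E15.5. Each of 3 litters gave 1 control and 1 FoxD1GC;Dicer fl/fl array (6 in all), and the RNA of each array was pooled from 2 embryos. In FoxD1GC;Dicer fl/fl embryos (FoxD1;Dicer below) an eGFP-Cre fusion is expressed from the endogenous FoxD1 locus, which is active in the renal stroma, and deletes a floxed part of both copies of Dicer, the enzyme that cuts miRNA precursors, in FoxD1-positive cells and their descendants. Controls were Cre-negative littermates. The FoxD1GC line was kept on a 129-Elite and the floxed Dicer line on a C57BL/6J background, and the mutants carry the GC allele at FoxD1 besides the loss of Dicer. The kidney also contains nephron progenitors, ureteric bud, blood cells and most endothelium, which lie outside the FoxD1 lineage and keep Dicer, so each value averages over all of them, and in such whole organs fewer cells of a type and less RNA per cell cannot be told apart.

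Mature miRNAs bind their targets mainly through the seed, bases 2 to 8, shown in capitals. The miR-17/92 cluster on chromosome 14 is a known regulator of Bim in mice, and its mature products are shown because they are the miRNAs through which a link between Dicer and Bim is best established. Sequences and positions are those of RefSeq on GRCm38.p6. These miRNAs were not measured on the arrays analysed here.
miR-17-5p (chr14:115043684-115043706): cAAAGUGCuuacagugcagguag
miR-20a-5p (chr14:115044183-115044205): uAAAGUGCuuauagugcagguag
miR-18a-5p (chr14:115043867-115043889): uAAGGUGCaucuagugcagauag
miR-19a-3p (chr14:115044048-115044070): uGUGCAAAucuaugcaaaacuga
miR-19b-3p (chr14:115044358-115044380): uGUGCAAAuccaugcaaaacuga
miR-92a-3p (chr14:115044476-115044496): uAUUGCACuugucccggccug
The cluster holds 4 seeds: miR-17-5p and miR-20a-5p share AAAGUGC, miR-19a-3p and miR-19b-3p share GUGCAAA, and miR-18a-5p and miR-92a-3p each have their own. Both miR-19b-3p and miR-92a-3p have a further copy on the X chromosome.

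Other members have regulators of their own, known mostly from human cells, and their mouse sequences are shown for comparison with the Bim regulators. miR-16-5p represses BCL2, miR-29b-3p represses MCL1, miR-221-3p represses BMF and BBC3, and miR-125b-5p represses BAK1. For each, 1 genomic copy is placed.
miR-16-5p (chr14:61631936-61631957): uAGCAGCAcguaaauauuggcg
miR-29b-3p (chr6:31063025-31063047): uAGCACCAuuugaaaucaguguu
miR-221-3p (chrX:19146307-19146329): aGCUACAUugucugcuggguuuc
miR-125b-5p (chr9:41581940-41581961): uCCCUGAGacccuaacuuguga
None of these 4 shares a seed with the miR-17/92 cluster. Antiapoptotic and proapoptotic members are thus both on record as miRNA targets, and the comparison between the 2 arms asks which of them was higher when stromal Dicer was lost.

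Bim was the member with the largest difference, although it did not pass the study's threshold in the fit used here. Bcl2l11 signal was higher in FoxD1;Dicer kidneys of every litter on both of the gene's probes that were detected on all 6 arrays, by 1.67-fold (95% interval 1.19 to 2.35) and 2.66-fold (1.79 to 3.98), and the groups did not overlap on either. No antiapoptotic gene was higher in all 3 litters on any probe tested. Of 19 member probes tested, 9 had a higher and 10 a lower estimate, with a median log2 fold change of -0.02, beside a median of -0.01 over all 18639 probes tested. At the study's threshold, a limma B-statistic above 0 (log odds of a change, with a prior share of 0.01), 0 member probes passed in either direction, and the share over all probes tested was 0.0%. The highest B of any probe was -1.29. The study, whose methods name the lumi package, reported genes past this threshold at E15.5. With the values that the authors processed, 0 member probes passed in the present model either. The B of the leading and second Bcl2l11 probes was then -2.54 and -2.76. The cause of the difference from the study was not tested. At an unadjusted p under 0.05, 1028 of the 18639 probes passed in the same limma fit. Of the member probes, 2 of 19 passed as higher (10.5%, against 2.59% of all probes) and 1 of 19 as lower (5.26%, against 2.92%). Both higher ones were probes of the same gene, Bcl2l11, and the lower one was a probe of Bcl2. With arrays scaled to 1 median, which turns the split over all probes from 483 higher and 545 lower to 217 higher and 1646 lower, 1 member probe passed as higher and 4 as lower.

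The leading probe of Bcl2l11, which is the probe of highest mean (ILMN_3157568), had normalized log2 signals of 8.02, 7.86 and 7.77 in the control kidneys of litters 1, 2 and 3. In FoxD1;Dicer kidneys the values were 8.47, 8.68 and 8.72. Every mutant array lay above every control array. The means were 7.88 ± 0.13 and 8.62 ± 0.14 (SD, n = 3 pools each). The litters differed by 0.45, 0.82 and 0.95, and limma gave a log2 fold change of 0.74 ± 0.21 (SE; adjusted p = 0.86, B = -2.92), the 186th smallest p of 18639. The signals as deposited, before any correction, were 370.9, 342.4 and 342.1 in controls and 486.9, 433.4 and 415.1 in mutants. They did not overlap between the groups either.

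The second probe of Bcl2l11 (ILMN_2590638), designed to another transcript record of the gene, was dimmer and showed the larger difference. Its log2 signals were 5.69, 5.50 and 5.57 in controls and 6.61, 6.93 and 7.45 in mutants. The groups were separated by more than the range within the control group, and the litters differed by 0.92, 1.43 and 1.88. The fitted log2 fold change was 1.41 ± 0.24 (SE; limma adjusted p = 0.71, B = -1.98), the 18th smallest p of all probes tested. Litter 1 had the smallest difference on both probes. Without litter 1 the second probe had a log2 fold change of 1.65 and a B above 0 (limma adjusted p = 0.18). In that fit all control pools were low and all mutant pools high for Xist, an RNA of female cells (below). Genotype and the sex of the pools cannot be told apart there. With arrays scaled to 1 median the change was 1.24 (limma adjusted p = 0.013). With the values that the authors processed, it was 0.38 for the second probe and 0.46 for the leading probe, which are the lowest values among the alternatives (13 for the second probe, 14 for the leading probe).

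The other 2 probes of Bcl2l11 carried little signal. The third (ILMN_1229255), detected on 2 control arrays and 1 mutant array, had a log2 fold change of 0.14 ± 0.21 (SE; limma adjusted p = 0.94), with litter differences of both signs. The fourth was detected on 0 of 6 arrays and was not tested. The 4 probes of 1 gene are not replicates of each other, and the isoform each detects was not determined here. The study's own PCR primers for Bcl2l11, designed around an array probe of the gene, mark a stretch of the transcript that can be re-measured independently of the array.
Bcl2l11 forward primer: ctgattcagcctggtgcctg
Bcl2l11 reverse primer: tgtgcaacgctgtttgagag

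**Figure D1:**
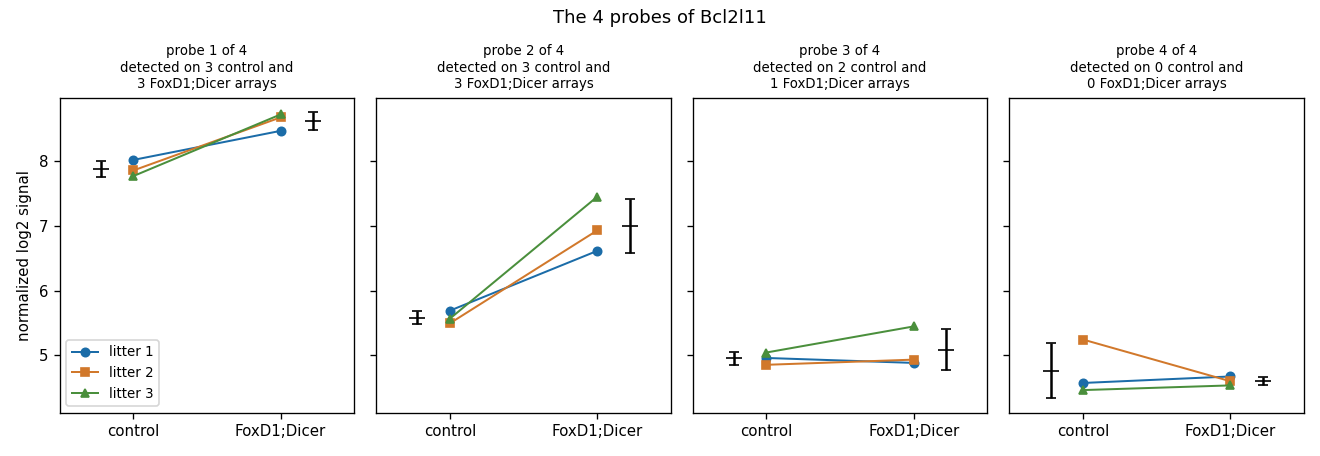
Normalized log2 signal of the 4 probes of Bcl2l11 in control and FoxD1;Dicer kidneys, 1 line per litter, with the mean and SD (n = 3) of each group in black beside the points. On the 2 brighter probes all 3 lines slope up and the groups do not overlap (8.02 and below against 8.47 and above on the first), while the 2 dim probes lie between 4.46 and 5.45.

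Marker signal of 3 kidney cell types is given beside that of Bim. For nephron progenitors, which keep Dicer in these mutants, the summed signal of 4 markers was 451 to 559 in controls and 505 to 772 in mutants. All 4 were detected on every array, and 1 of the 4 (Eya1, a progenitor transcription cofactor) passed an unadjusted p under 0.05 in limma. The log2 fold changes were 0.60 for Eya1, 0.67 for Six2, 0.07 for Cited1 and -0.29 for Osr1. Six2 was lower in mutants of litter 1. The summed signal of 5 stromal markers was 5109 to 5259 in controls and 4379 to 5124 in mutants. Their log2 fold changes had both signs: -0.32 for Foxd1, -0.08 for Meis1, -0.13 for Tcf21, 0.06 for Pdgfra and 0.33 for Pdgfrb. Pdgfrb, the dimmest of them, was higher in mutants of every litter, and its groups did not overlap. For the proximal tubule, an epithelium of the nephron, 3 markers summed to 1691 to 2187 in controls and 853 to 2276 in mutants, and 1 of the 3 passed an unadjusted p under 0.05. That marker was Slc34a1, a phosphate transporter, at a log2 fold change of -0.78, with litter differences of 0.03, -1.52 and -0.86. The ranges of the 2 groups overlap for each of the 3 sums. The part of these marker levels in the higher Bcl2l11 signal was not tested.

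The remaining BH3-only genes did not share the direction of Bim in every litter. Bmf, which like Bim is held on the cytoskeleton by dynein light chains, had log2 signals of 7.64, 7.16 and 7.05 in controls and 7.41, 7.64 and 7.89 in mutants. It was lower in mutants of litter 1 and higher in litters 2 and 3, so the groups overlapped. The fit gave a log2 fold change of 0.36 ± 0.26 (SE; limma adjusted p = 0.87). Over the 6 arrays Bmf and the leading Bcl2l11 probe had a Pearson correlation of 0.80, a description that includes the difference between genotypes.

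Bbc3, which encodes the p53-induced Puma, differed in opposite directions among the litters. Its leading probe had log2 signals of 7.28, 8.24 and 8.19 in controls and 8.04, 7.35 and 6.97 in mutants. Each group thus held both high and low arrays, and the litter differences were 0.76, -0.90 and -1.22. The estimate on the log2 scale was -0.45 ± 0.38 (SE; limma adjusted p = 0.89). It was -1.05 without litter 1, -0.23 without litter 2 and -0.07 without litter 3. Its other 2 probes were each detected on 1 array of each group and were not tested.

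The 3 arrays with low Bbc3 were the 3 with high Xist, the noncoding RNA that coats the inactive X chromosome in female cells. Xist had log2 signals of 9.64, 4.57 and 4.61 in controls and 4.54, 9.39 and 9.64 in mutants, so it was high in the control pool of litter 1 and in the mutant pools of litters 2 and 3. Y-linked Eif2s3y was detected on all 6 arrays and ran opposite to Xist, between 8.02 and 9.20 where Xist was high and between 9.94 and 10.06 where it was low, and Y-linked Kdm5d did the same (6.05 to 6.86 and 7.91 to 8.06). Sex was thus not balanced between the pools of the 2 groups. Without litter 1 the control pools were all low and the mutant pools all high for Xist. Genotype and sex therefore cannot be told apart in any estimate that leaves out litter 1. With Xist as a covariate the log2 fold change of Bbc3 was -0.16. Detection was also broadest on the arrays with high Xist (19331 to 20224 probes, and 16981 to 18943 on the rest), and these differences between the arrays cannot be told apart. Bmf ran opposite to Bbc3, with a Pearson correlation of -0.96 over the 6 arrays, and its log2 fold change was 0.22 with the Xist covariate. The leading and second probes of Bcl2l11 were higher in mutants in all 3 litters, least in litter 1, where the control had the high Xist. The third was lower in mutants of litter 1 (-0.08). With the covariate the log2 fold changes of the 3 tested probes were 0.67, 1.30 and 0.085, beside 0.74, 1.41 and 0.14 without it. The part of Xist and of sex in these differences was not tested.

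**Figure D2:**
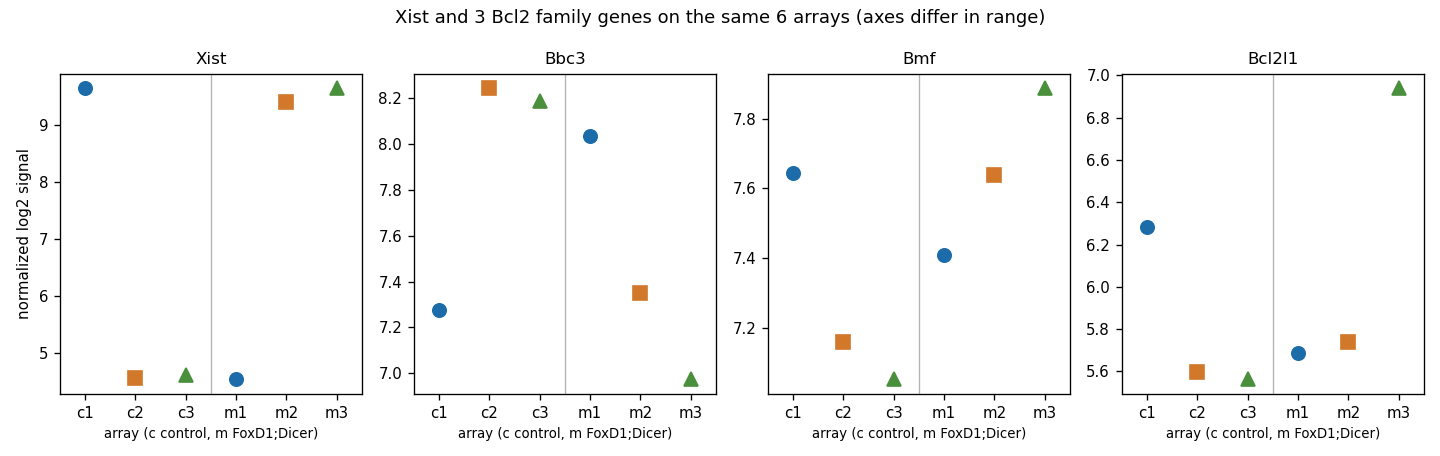
Normalized log2 signal of Xist and of the leading probes of Bbc3, Bmf and Bcl2l1 on each of the 6 arrays (c, control; m, FoxD1;Dicer; the number is the litter). The arrays c1, m2 and m3 are high for Xist (9.39 to 9.64, the others at 4.54 to 4.61) and low for Bbc3 (6.97 to 7.35, the others at 8.04 to 8.24).

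Bid, which caspase-8 cleaves to link death receptors to mitochondria, and Bad, which survival signalling keeps bound to 14-3-3 proteins, had estimates near 0. Bid had log2 signals of 6.73, 6.75 and 6.67 in controls and 6.71, 6.65 and 6.56 in mutants on its leading probe. It was lower in mutants of all 3 litters, by a log2 fold change of -0.08 ± 0.19 (SE; 95% interval -0.54 to 0.37, limma adjusted p = 0.96), and the groups overlapped. Its second probe was detected on 1 control array only and was not tested. Bad had log2 signals of 8.57, 8.61 and 8.70 in controls and 8.68, 8.53 and 8.63 in mutants. Its log2 fold change was -0.02 ± 0.19 (SE; 95% interval -0.48 to 0.45, limma adjusted p = 0.99). Over the 7 tested probes of the 5 BH3-only genes, 4 had a higher and 3 a lower estimate, with a median of 0.14.

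**Figure D3:**
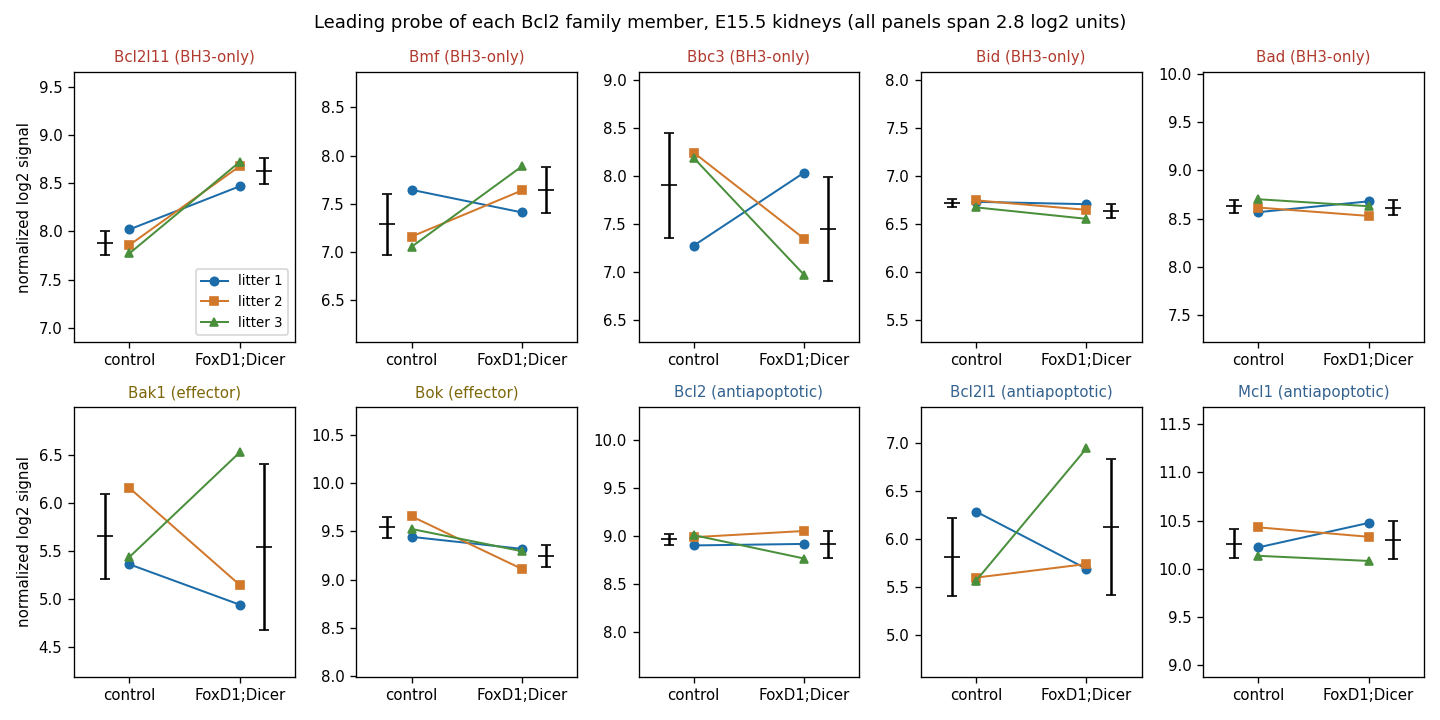
Normalized log2 signal of the leading probe of each of the 10 genes in control and FoxD1;Dicer kidneys, 1 line per litter, with the mean and SD (n = 3) in black. All panels span the same range of log2 units around their own midpoint, so slopes can be compared and levels of different genes cannot. The 3 lines slope up for Bcl2l11, slope down for Bok and Bid, and cross for Bbc3, Bcl2l1 and Bak1.

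Estimates in the antiapoptotic arm had both signs. Bcl2, the founding survival factor of the family, was represented by 9 probes, of which 6 were tested, and these had log2 fold changes from -0.61 to 0.33. Its leading probe (ILMN_1249021) had log2 signals of 8.90, 8.99 and 9.01 in controls and 8.92, 9.05 and 8.76 in mutants. The groups overlapped, and the log2 fold change was -0.05 ± 0.20 (SE; 95% interval -0.52 to 0.42, limma adjusted p = 0.98).

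The probes of Bcl2 disagreed with one another. The second and the third by mean signal had higher estimates, 0.33 ± 0.26 and 0.25 ± 0.31 (SE), and the fourth and the fifth had lower ones, -0.51 ± 0.33 and -0.45 ± 0.24 (SE). The sixth (ILMN_2682162) is designed to another transcript record of the gene than the other 5 tested, and it was lower in each litter. Its log2 signals were 6.56, 5.85 and 5.96 in controls and 6.01, 5.30 and 5.24 in mutants. Both arrays of litter 1 were high, so the groups overlapped although the litters differed by -0.54, -0.56 and -0.72. The log2 fold change was -0.61 ± 0.19 (SE; limma adjusted p = 0.86, B = -3.19), the 359th smallest p and the only member past an unadjusted p under 0.05 in the lower direction. The other 3 Bcl2 probes were detected on 2 arrays or fewer.

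Bcl2l1, which encodes Bcl-xL, had differences of both signs among the litters. Its leading probe had log2 signals of 6.28, 5.60 and 5.56 in controls and 5.69, 5.74 and 6.94 in mutants. Litter 1 was lower in mutants, litter 2 was close to level and litter 3 was higher by 1.38. The log2 fold change was 0.31 ± 0.37 (SE; limma adjusted p = 0.92), and without litter 3 it was -0.22. The 3 arrays with high Xist were also the 3 highest for this probe (5.74 to 6.94, the others at 5.56 to 5.69), and with Xist as a covariate the change was 0.09. The second probe had 0.27 ± 0.40 (SE) and was lower in mutants of litter 1 and higher in litters 2 and 3, with -0.03 under the Xist covariate. Another probe was detected on 0 of 3 control arrays and 2 of 3 mutant arrays and was not tested. Set against the dimmest detected signal of the control arrays (mean 5.07 on the log2 scale), its mutant mean was 1.24-fold higher. The mutant log2 signals were 4.74, 5.01 and 6.37, and only that of litter 3 stood clear of the controls (4.57 to 4.89). Those of litters 1 and 2 lay below 5.07, so the 1.24-fold rests on litter 3 and is no least difference between the groups. The fourth probe was detected on none of the arrays.

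Mcl1, a short-lived survival protein on which many progenitors depend, had an estimate near 0. Its only probe had log2 signals of 10.22, 10.43 and 10.13 in controls and 10.48, 10.33 and 10.08 in mutants. The log2 fold change was 0.03 ± 0.20 (SE; 95% interval -0.44 to 0.51, limma adjusted p = 0.99). With arrays scaled to 1 median in place of quantile normalization, which moved the median of all probes to -0.22, it was -0.29. Over the 9 tested probes of the antiapoptotic genes, 5 had a higher and 4 a lower estimate (median 0.03), 2 were lower in all 3 litters and 0 were higher in all 3.

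The effectors among the members were Bak1 and Bok, and all 3 of their tested probes had lower estimates (median -0.24). Bax, a proapoptotic family gene outside the 10 members, had no tested probe. Bok, a Bak-like effector, had log2 signals of 9.44, 9.66 and 9.53 in controls and 9.32, 9.11 and 9.29 in mutants on its leading probe (ILMN_2772077). Every mutant array lay below every control array, and the litters differed by -0.12, -0.55 and -0.23. The log2 fold change was -0.30 ± 0.20 (SE; 95% interval -0.78 to 0.18, limma adjusted p = 0.86). The second Bok probe, detected on 5 of 6 arrays, had -0.24 ± 0.39 (SE) and differed by -1.47 in litter 1 and by 0.67 in litter 2. Bak1, which sits on the outer mitochondrial membrane and is held inactive there by Vdac2, had log2 signals of 5.36, 6.16 and 5.44 in controls and 4.94, 5.15 and 6.53 in mutants. The mutant array of litter 3 was the highest of all 6 and the other 2 mutant arrays were the lowest, with a log2 fold change of -0.11 ± 0.39 (SE; limma adjusted p = 0.97).

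Over the 19 tested member probes, counts of separated arrays and of litters with 1 sign were small. The groups did not overlap on 2 of 19 member probes in the higher direction (10.5%, both Bcl2l11), against 5.92% of all probes tested. In the lower direction they did not overlap on 1 of 19 (5.26%, Bok), against 7.0%. A higher value in all 3 litters was seen for 2 of 19 (10.5%), against 11.5% of all probes. A lower value in all 3 litters was seen for 4 of 19 (21.1%: 2 probes of Bcl2 and the leading probes of Bid and Bok), against 13.6%. At 19 probes none of these shares differs from that of all probes by more than 2 probes.

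**Figure D4:**
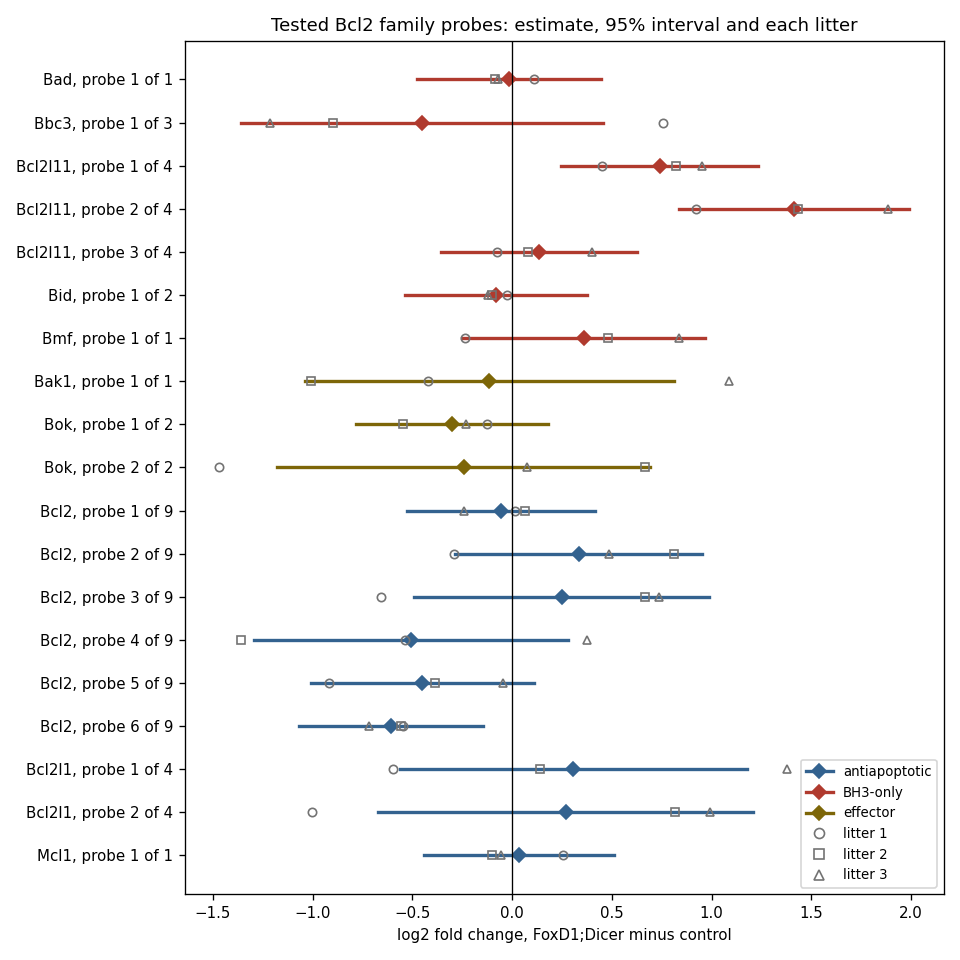
Log2 fold change (FoxD1;Dicer minus control) of the 19 tested member probes, with the limma estimate as a diamond, its 95% interval as a bar and the difference within each litter as an open symbol. The intervals of 2 Bcl2l11 probes lie wholly above 0 and that of the sixth Bcl2 probe wholly below 0 (-1.07 to -0.15); the other 16 include 0.

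Across arrays, the leading probes of some members ran in opposite directions. The leading probes of Bcl2l11 and Bok had a Pearson correlation of -0.89 over the 6 arrays, and those of Bcl2 and Bcl2l1 also had -0.89. The probes of Bcl2 disagreed with one another, so its value holds for the leading probe only. Correlations of the other probes were not taken. The genes whose leading probe ran most like that of Bcl2l11 over the 6 arrays were Bnc2 (r = 0.995), Epha7 (0.989), Clcn4 (0.989), Mtpap (0.988) and Tmtc2 (0.984). Their log2 fold changes were 0.49, 0.25, 0.76, 0.15 and 0.32 in that order, all higher in mutants of each litter. All 6 arrays enter each value, so the difference between genotypes is part of it.

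Other members of the family and the proteins that bind or turn over Bcl2 proteins were counted from lists. Of 17 other family genes 15 had a probe and 9 were tested. Bax, Bcl2l10, Bcl2a1a, Hrk, Pmaip1, Bnip3, Bcl2l15 and Moap1 had no tested probe. Of the 9 tested, 6 had a higher and 3 a lower estimate (median 0.05, range -0.27 to 0.34). In limma 0 passed an unadjusted p under 0.05, where 2.59% of all probes passed as higher and 2.92% as lower. Of 32 partners and regulators 27 had a probe and 22 were tested; 6 were higher and 16 lower (median -0.05, range -0.25 to 0.79). The median over the leading probes of all genes was -0.04. Of the 22, 1 passed an unadjusted p under 0.05 as higher and 0 as lower (against 2.59% and 2.92% of all probes), and 0 had a B above 0. Neither list stands apart from the background in its count past the unadjusted p. Over all probes tested, 9070 had a higher and 9569 a lower estimate. Whether the split of either list differs from that was not tested.

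That gene was Dynll2, the dynein light chain that tethers Bmf to myosin motors and can also bind Bim. Its log2 signals were 6.05, 6.42 and 6.40 in controls and 7.004, 6.995 and 7.243 in mutants. The groups did not overlap, and the litters differed by 0.96, 0.57 and 0.85. The log2 fold change was 0.79 ± 0.20 (SE; limma adjusted p = 0.86), or 1.73-fold (95% interval 1.24 to 2.41). With the values that the authors processed, it was 0.25. Its paralogue Dynll1 had litter differences of -0.26, 0.22 and 0.01, of both signs.

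The arrays as a whole bound these readings. Median signals were 106.3 to 123.7 and 37.5% to 44.7% of probes were detected per array. The Dicer1 probe had a log2 fold change of -0.33 ± 0.21 (SE) and Foxd1 -0.32 ± 0.20 (SE), lower in each litter for both; whether the Dicer1 probe lies in the deleted part was not determined, so it does not check the deletion. All 5 stromal markers were detected on every array, and of 5 adrenal markers 0 were, with Cyp17a1 and Hsd3b1 detected on none. Leukocyte markers (4 of 5 with a probe) summed to 329 to 398 in controls and 310 to 521 in mutants. The median SE over all probes tested was 0.22 on the log2 scale, and the smallest adjusted p in the limma fit was 0.32.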

How the data were processed

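RNA of whole kidneys was hybridised to Illumina MouseWG-6 v2.0 bead arrays. Intensity was deposited as the mean signal over a probe's beads, with neither background nor array effects removed, beside a deposited detection p-value that sets it against negative controls. A second deposited set holds log2 values processed by the authors; their methods name the lumi and limma packages, litter in the linear model and a B-statistic above 0, and do not state the transformation. Their medians per array were 7.235 to 7.239, so the scale is log2-like with an unknown exact transformation; higher is brighter and genes were not centred.

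Of 45281 entries 45277 were usable, 34881 of them with 1 gene symbol in the platform annotation, 18 with several and 10378 unnamed here. For 26 of the 28 member probes the accession was one of the gene's in RefSeq. Signals went through neqc, which applies normexp (offset 16, with background inferred through detection), quantile normalization and log2. Testing was limited to the 18639 probes (10474 genes) detected at 0.05 on 3 or more arrays, with limma's lmFit and eBayes for litter and genotype, with Benjamini-Hochberg adjusted p over all of them. The script was tested on simulated data. Of the 28 member probes 19 were tested and 9 were not; 14 were detected on all 6 arrays and 4 on none. A gene was led by its probe of highest mean. Levels of different genes were not compared. Marker sums add the signals of several probes on the linear scale, so the brightest weigh most. The number of arrays limits the precision. A group at background on all its arrays was bounded by the lowest detected signal of each array.

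All probes of the 10 members were accounted for, and of the 2 lists around them a gene was named where its leading probe had an unadjusted p under 0.05 and the same sign in all 3 litters. The 5 genes most like Bcl2l11 by Pearson correlation were named as a description. The members and lists were chosen with earlier results of these data known. The litter number comes from the labels, and deviations from the group means of the 2 arrays of a litter correlated at -0.29, -0.02 and -0.12. The replicates are pools of 2 embryos from separate litters. Alternatives changed the litter term, the values, the background correction, the scaling, the filter, the variance prior, the array weights, the offset, Xist as a covariate and the litters included. Of the 6 columns of each kind none was left unmapped. Later time points, miRNA levels and protein were not analysed here. Versions were Python 3.11.15 with pandas 2.3.3 and matplotlib 3.10.9, and R 4.3.3 with limma 3.58.1.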

Additional observations from a re-analysis of the deposited data

How the results depend on the processing

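Both brighter probes of Bcl2l11 stayed higher under every alternative that tested them, at log2 fold changes of 0.46 to 0.88 for the leading and 0.38 to 1.65 for the second probe (limma adjusted p from 0.013 to 1.0 across them), and Dynll2 at 0.25 to 0.90. Over the named probes, 250 alternative values kept their sign and their side of the threshold, 5 passed it (all Bcl2l11) and 16 turned sign. No replicate block (litters taken as unpaired) gave 1 member probe with a B-statistic above 0 in the higher direction (the second Bcl2l11 probe, limma adjusted p = 0.21), scaling to 1 median gave 1, array weights gave 2 and leaving out a litter gave 0 to 1. At an unadjusted p under 0.05 the higher member probes numbered 1 with scaling, 1 with the strict filter, 6 with array weights and 1 to 6 when a litter was left out (6 without litter 1). The strict filter left 10 member probes and not the second of Bcl2l11. The lower ones numbered 0 without the replicate block, with litter as a random block, with the authors' processed values, without background correction and with the strict filter, 4 with scaling, 5 with array weights, 3 with the Xist covariate and 0 to 2 when a litter was left out. Over all probes, a B above 0 was reached by 34 with no replicate block, 10 with a random block, 5 without background correction, 117 with scaling, 18 with an intensity trend, 249 with array weights, 10 with the Xist covariate, 3 with an offset of 50 and 0 to 42 when a litter was left out (42 without litter 1, 41 without litter 2). An unadjusted p under 0.05 was reached by 1863 with scaling, 2396 with no filter (45277 probes tested), 5851 with array weights, 1729 with the Xist covariate and 540 to 3949 when a litter was left out (3949 without litter 1). Without litter 1 all control pools were low and all mutant pools high for Xist, so that setting cannot tell genotype from sex. Log2 fold changes turned sign for the leading Bcl2 probe with array weights (0.0079), the second Bcl2l1 probe with the Xist covariate (-0.032), Mcl1 with scaling (-0.29) and array weights (-0.064), Bad with the Xist covariate (0.015) and the second Bok probe with array weights (0.41). When a litter was left out, the ranges that crossed 0 were -0.11 to 0.040 for the leading Bcl2 probe, -0.22 to 0.75 and -0.094 to 0.91 for the 2 Bcl2l1 probes, -0.078 to 0.10 for Mcl1, -0.081 to 0.020 for Bad, -0.70 to 0.34 for Bak1 and -0.71 to 0.37 for the second Bok probe. The cause of these changes was not tested. Groups of 3 pools are too small for a search for outlying samples.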
